A study of Mus musculus with 4 samples.

Results

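The common gamma chain cytokines and their receptors were described in mouse T helper 17 (Th17) cells through 10 genes. They were the ligand genes Il2, Il9 and Il21, the shared receptor chain gene Il2rg, and the partner chain genes Il2ra, Il2rb, Il4ra, Il7r, Il9r and Il21r. The members were chosen by name, and each symbol was matched to 1 of the 50600 genes that the deposited tables list. RNA sequencing of 4 libraries gave their expression, and the labels describe these libraries as primary Th17 cells of the strain C57BL/6NJ. The labels name total RNA as the molecule, but the library protocol they point to is for poly(A)-selected RNA, so it is not certain which RNA the levels cover. Th17 cells are helper T cells named for the cytokine IL-17, and the labels refer to a CD4 T cell differentiation protocol without saying in the text given which cytokines were added. All 4 libraries form 1 group with no treatment, mutation or contrast. They carry replicate numbers 1 to 4 and share 1 donor label, and age and sex are not given. Nothing in the labels ties the replicate numbers to separate mice or cultures. Sex-linked RNA, given below, shows that the libraries did not all come from 1 mouse, but the number of mice is not given. The p-values below therefore cover only these libraries. For ratios of genes they depend on how far the libraries agree in direction. For variation between libraries they measure the spread, part of which may be technical. Levels below are TPM, fragment counts divided by exon length and scaled to a fixed sum in each library, so that genes of different length can be set side by side.

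The shared chain, also called the common gamma chain or CD132, joins receptors for a family of cytokines that act on lymphocytes. Each cytokine binds the shared chain together with a signalling partner chain, and some partner chains serve more than 1 cytokine. The signalling partner chains bind JAK1, the shared chain binds JAK3, and the kinases activate STAT proteins. IL-2 drives T cell growth through STAT5, IL-7 maintains resting T cells, and IL-21 acts mainly through STAT3 and takes part in Th17 differentiation. IL-9 acts on mast cells and epithelium among others. IL-2 signalling is known to restrain Th17 differentiation. Loss of the shared chain causes X-linked severe combined immunodeficiency in humans.

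The 250 bases before the transcription start are shown for the 3 ligand genes, which were all detected, and for Il9r, the member that was close to absent. They are from the RefSeq promoter table for GRCm38.p6, which held 9 of the 10 members but not Il2rb. For Il2 and Il9 the RefSeq start differs slightly from that of the gene model used for counting, whose span is given below. Distances before the start are from the RefSeq start. All 4 genes lie on the minus strand, and each sequence is written along the gene, 5′ to 3′, ending at the base before the start. The regions are chr3:37125955-37126204 for Il2, chr3:37232637-37232886 for Il21, chr13:56482258-56482507 for Il9 and chr11:32200280-32200529 for Il9r. Capitals mark 3 of the 4 motifs that were searched for on both strands, whose letters were chosen with these sequences in view. They are GGAAAA for the NFAT core, which reads TTTTCC on the other strand. For AP-1 the letters are TGANTCA. For the TATA motif they are TATAAA. The STAT motif TTCNNNGAA was the other motif searched for and was not found in these 4 windows.
Il2: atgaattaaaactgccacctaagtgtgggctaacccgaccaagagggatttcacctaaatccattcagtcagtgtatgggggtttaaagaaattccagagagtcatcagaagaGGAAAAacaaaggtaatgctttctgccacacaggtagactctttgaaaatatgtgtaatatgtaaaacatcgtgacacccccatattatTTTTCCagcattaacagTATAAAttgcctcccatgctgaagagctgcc
Il21: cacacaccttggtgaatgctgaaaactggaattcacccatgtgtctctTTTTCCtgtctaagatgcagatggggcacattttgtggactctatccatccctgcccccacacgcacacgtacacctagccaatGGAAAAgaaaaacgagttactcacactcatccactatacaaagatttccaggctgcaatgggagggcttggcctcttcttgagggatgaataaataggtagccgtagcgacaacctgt
Il9: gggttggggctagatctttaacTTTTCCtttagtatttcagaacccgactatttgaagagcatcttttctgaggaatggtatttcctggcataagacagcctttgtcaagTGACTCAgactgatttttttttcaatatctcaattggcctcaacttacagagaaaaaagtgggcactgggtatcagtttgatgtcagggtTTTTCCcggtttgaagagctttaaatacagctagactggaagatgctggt
Il9r: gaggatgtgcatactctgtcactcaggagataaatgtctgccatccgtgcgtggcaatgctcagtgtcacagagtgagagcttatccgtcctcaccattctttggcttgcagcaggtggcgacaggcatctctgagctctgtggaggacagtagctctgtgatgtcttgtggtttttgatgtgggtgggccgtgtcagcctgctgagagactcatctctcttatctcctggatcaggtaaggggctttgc

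NFAT, a factor that enters the nucleus after T cell receptor signalling, and AP-1 act together on cytokine genes of activated T cells. The NFAT core occurred 2 times in each of the 3 ligand windows. In Il2 it lay 137 to 132 and 48 to 43 bases before the start, in Il21 202 to 197 and 118 to 113 bases before it, and in Il9 228 to 223 and 50 to 45 bases before it. The Il9 window also held 1 AP-1 motif 140 to 134 bases before the start, and the Il2 window held 1 TATA motif 31 to 26 bases before it. The Il9r window held none of the 4 motifs. Among the receptor genes, the Il7r window held 1 NFAT core and 1 STAT motif, and the windows of Il2rg, Il2ra, Il4ra and Il21r held none. Of 21262 promoter windows of the same length from 17491 genes, 19.8% held the NFAT core, 6.13% the AP-1 motif, 6.58% the STAT motif and 11.6% the TATA motif. A match is a description of letters in the window only.

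Library totals ranged from 28555677 to 58104663 fragment counts, lowest in replicate 1 and highest in replicate 3. No library was a repeat deposit of another, since for each pair the counts over genes differed beyond sampling (chi-square over its degrees of freedom between 3.86 and 9.86). The labelled cell type was checked against its markers. Il17f was at 11569 ± 117 TPM (SD, n = 4), Il17a at 4436 ± 179, Cd4 at 346 ± 16.1 and Cd3e, a T cell receptor chain, at 107 ± 1.2. Most markers of other helper T cells were detected at lower levels. Bcl6 was at 13.4 ± 1.27 TPM, Tbx21 at 10.9 ± 1.36, Foxp3 at 5.25 ± 1.18, Ikzf2 at 4.54 ± 0.191 and Gata3 at 2.34 ± 0.389. Ifng was not detected, at 0.0737 ± 0.0771 TPM. Which cells carried these RNAs was not tested. Of 16 markers of cells other than helper T cells, 0 reached 1 TPM in any library, 8 had 0 counts in every library, and their summed level was 2.39 to 2.75 TPM. Of the 3 markers of mast cells and basophils, which can make IL-9 and IL-4, Mcpt8 and Cpa3 had 0 counts in every library, while Kit was at 0.825 ± 0.164 TPM, the highest mean of the 16. The libraries were not alike in sex-linked RNA, so they did not all come from 1 mouse. Each mean and SD over the 4 libraries therefore spans both kinds of library. Xist, the RNA that silences an X chromosome, was at 132, 131, 0.329 and 0.496 TPM in replicates 1 to 4, and the Y-linked gene Eif2s3y at 0.282, 0.239, 65.5 and 58.4 TPM, although the 4 libraries share a donor label. The counts of replicates 1 and 2 (chi-square ratio 3.86) and of replicates 3 and 4 (5.40) were closer to each other than those of any pair across that division (7.68 to 9.86). That ratio includes the sex-linked genes themselves and grows with depth, so whether other genes follow the division was not tested. Since these are bulk libraries, fewer cells that express a gene and less RNA per cell cannot be told apart.

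Of the 10 members, 9 were at 1 TPM or more in every library, where 47% of 21764 protein-coding genes were. The median of the members' mean levels was 314 TPM, and the members together took 0.543% to 0.558% of all counts in each library. Levels fell into a high set of Il9, Il2ra, Il2 and Il2rb from 927 TPM upwards, a middle set of Il21, Il2rg, Il4ra and Il21r between 100 and 400 TPM, Il7r below it, and Il9r close to 0.

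**Figure D1:**
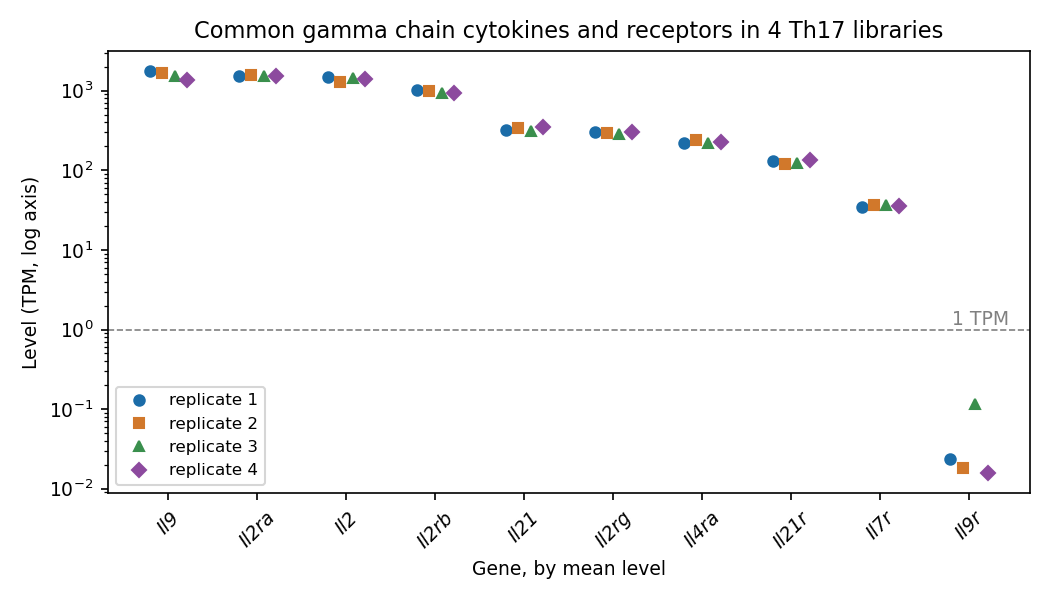
Level of each of the 10 members in TPM on a log axis, in order of mean level, with 1 symbol for each of the 4 libraries and a dashed line at 1 TPM. The symbols of each gene lie close together except for Il9r, where replicate 3 (0.116 TPM) lies above the other libraries.

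Among the ligands, Il9, which encodes a cytokine made by several helper T cell types, had the highest mean level of the 10 members. Il9 was at 1774, 1687, 1541 and 1377 TPM in replicates 1 to 4, from 8117, 10014, 14445 and 9552 counts, a mean of 1595 ± 174 TPM (SD, n = 4). Replicate 1 was the highest and replicate 4 the lowest, and the coefficient of variation (CV, the SD as a percentage of the mean) was 10.9%, the largest of the 9 detected members. Both libraries high in Xist were above both libraries low in it, and the part of that division in the spread of Il9 was not tested. Il9 (ENSMUSG00000021538.3) spans chr13:56479277-56482246 on the minus strand in mm10, and its exon length of 536 bases is the shortest of the 10. Its place rests on that length, since in CPM (counts scaled to the library total, with no length) it ranked 6 of 10. The fragment length was not taken into account in TPM, and its part in the level of so short a gene was not tested.

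Il2, the growth factor of activated T cells, was at 1501, 1296, 1424 and 1407 TPM in replicates 1 to 4, a mean of 1407 ± 84.6 TPM (SD, n = 4). Replicate 2 was the lowest library for Il2, while it was the second highest for Il9. Il2 (ENSMUSG00000027720.7) spans chr3:37120523-37125959 on the minus strand. Il21, made by Th17 and follicular helper T cells, was at 323, 344, 312 and 354 TPM, a mean of 333 ± 19.1 TPM (SD, n = 4), with replicates 2 and 4 above replicates 1 and 3. Il21 (ENSMUSG00000027718.8) spans chr3:37222759-37232636 on the same strand as Il2, and 96799 bases separate the 2 genes. With deposited lengths, the 3 ligand genes together reached 3335 ± 193 TPM, and the 7 receptor genes 3191 ± 58.9 TPM. Which sum was higher rested on the length used, and with the longest transcript it was that of the receptor genes.

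The other ligands of the family and its relatives were low in the same libraries. None of the 5 (Il4, Il7, Il13, Il15 and Tslp) was at 1 TPM or more in every library. The highest of them was Il4, the Th2 cytokine, with 2, 22, 28 and 9 counts in replicates 1 to 4, or 0.191, 1.62, 1.31 and 0.567 TPM. Il13 had 15, 7, 4 and 6 counts, or 1.46, 0.524, 0.190 and 0.385 TPM. Il7, which is made mainly by stromal cells, had 0 counts in every library. A count of 0 allows up to 3 counts, which is 0.0516 to 0.105 CPM over the libraries and covers counting error only.

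The IL-2 receptor is built of Il2ra, which raises affinity and does not itself signal, Il2rb, which carries the signalling tail shared with IL-15, and Il2rg. Il2ra, also called CD25, was at 1512, 1576, 1548 and 1519 TPM in replicates 1 to 4, a mean of 1538.5 ± 29.4 TPM (SD, n = 4). The libraries lay within 1.04-fold of each other, and the CV of 1.91% was the smallest of the 10 members. Il2ra (ENSMUSG00000026770.5) spans chr2:11642807-11693193 on the plus strand and alone took 0.264% of all counts pooled over the libraries. Il2rb was at 1009, 994, 927 and 937 TPM, a mean of 967 ± 41.1 TPM (SD, n = 4), higher in replicates 1 and 2 than in replicates 3 and 4, the division of the libraries seen in Xist. Apart from Il9, no other member divided the libraries in that way, and a link to that division was not tested. Il2rb (ENSMUSG00000068227.8) spans chr15:78480553-78495066 on the minus strand. Il2ra exceeded Il2rb in 4 of 4 libraries, by a log2 ratio of 0.67 ± 0.07 (SD, n = 4), with 2 of 16 sign patterns as extreme in an exact two-sided sign-flip test (p = 0.125, the smallest that 4 libraries allow). The private chain of the IL-15 receptor, Il15ra, was at 1.21, 0.914, 1.26 and 0.921 TPM, on either side of 1 TPM.

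Il2rg, the shared chain, was at 299.6, 298, 282 and 301 TPM in replicates 1 to 4, a mean of 295 ± 8.69 TPM (SD, n = 4). Replicate 3 was the lowest, and the other 3 libraries lay close together. Il2rg (ENSMUSG00000031304.18) spans chrX:101264378-101268255 on the minus strand. Of the libraries far apart in Xist, replicates 1 and 4 were close in Il2rg (299.6 and 301 TPM), while replicates 2 and 3 were not (298 and 282 TPM). The 3 protein-coding genes nearest to Il2rg in level over the 4 libraries were Ssr2, a subunit of the translocon-associated complex, Mrpl18, a mitochondrial ribosomal protein, and Cyfip2, an actin regulator, with root mean square differences of 0.0157, 0.0210 and 0.0258 in log2(TPM + 0.1). As many as 69 protein-coding genes lay within 0.1 of Il2rg on that scale. Both the nearest genes and that number rest on the level with deposited lengths, which was understated for Il2rg, as described next.

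The level of Il2rg was understated by the gene models used for counting. A read-through gene model on the same strand, Gm20489 (ENSMUSG00000092463.1), spans chrX:101261405-101269023 and shares 728 of the 2387 exon bases of Il2rg. Fragments that fell on shared exons of both genes were left uncounted, and Gm20489 itself had 0, 0, 0 and 1 counts. Over the exon bases that no other gene shares, Il2rg was at 421 ± 12.4 TPM (SD, n = 4). Over the 942 unshared bases of its longest transcript, which has 1670 bases in all, it was at 595, 593, 561 and 597 TPM, a mean of 586 ± 17.0 TPM (SD, n = 4). Replicate 3 stayed the lowest. Both values are approximate, because some fragments reaching across shared and unshared bases may also have gone uncounted. For the value over the longest transcript, that transcript also came from a later annotation than the counts. Of the 10 members, Il2rg was the only one with exon bases shared with another gene on its strand, by the annotation used here.

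The partner chains that signal with the shared chain were set against it in each library. Il2rb, Il4ra, Il7r, Il9r and Il21r together were at 1396, 1392, 1306 and 1334 TPM in replicates 1 to 4, a mean of 1357 ± 44.4 TPM (SD, n = 4). Their sum exceeded Il2rg in 4 of 4 libraries by a log2 ratio of 2.20 ± 0.03, or 4.59-fold (exact two-sided sign-flip p = 0.125, the smallest possible). Most of that sum was Il2rb, since without it the other 4 chains were at 390 ± 8.81 TPM, a log2 ratio to Il2rg of 0.40 ± 0.02, or 1.32-fold with deposited lengths. That excess turned over unshared exon bases, at a log2 ratio of -0.12 ± 0.02, and over unshared bases of the longest transcript, at -0.69 ± 0.02. With Il2rg over unshared exon bases the log2 ratio of the 5 chains was 1.68 ± 0.03. Over unshared bases of the longest transcript it was 0.94 ± 0.03, or 1.91-fold, so the size of the excess rests on the length used for Il2rg. Il2rb alone exceeded Il2rg by a log2 ratio of 1.71 ± 0.05 with the deposited lengths and of 0.37 ± 0.05 with unshared bases of the longest transcript. In that setting Il2rb and Il7r kept their deposited lengths, because their model versions differed in the annotation used. These are RNA levels per exon length, and receptor protein was not measured.

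**Figure D2:**
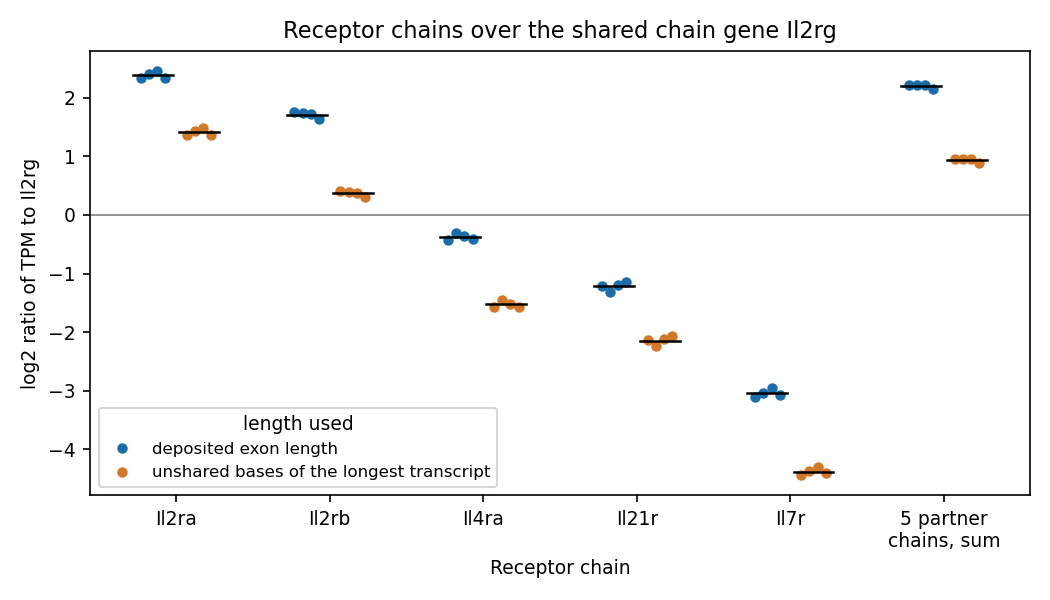
Log2 ratio of the TPM of 5 receptor chains, and of the sum of the 5 partner chains that signal with it, to that of Il2rg in 4 libraries (points) with their mean (bar), for the deposited exon lengths and for unshared bases of the longest transcript. Ratios above 0 are higher than Il2rg. All are lower with unshared bases, and the sum is at 0.94 with them and at 2.20 with deposited lengths. Il9r, at a log2 ratio of -11.06, is not drawn.

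Il4ra, the signalling chain for IL-4 and IL-13, was at 223, 241, 219 and 225 TPM in replicates 1 to 4, a mean of 227 ± 9.47 TPM (SD, n = 4), highest in replicate 2. Il4ra (ENSMUSG00000030748.9) spans chr7:125552120-125579474 on the plus strand. Il21r, the IL-21 receptor, was at 129, 120, 123 and 136 TPM, a mean of 127 ± 7.08 TPM (SD, n = 4), lowest in replicate 2. Il21r (ENSMUSG00000030745.9) follows Il4ra on the same strand at chr7:125603429-125633570, with 23954 bases between them. Both the IL-21 gene and its receptor gene were thus expressed in the same libraries, and Il21 exceeded Il21r in 4 of 4 libraries by a log2 ratio of 1.39 ± 0.09 (SD, n = 4).

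Il7r, the IL-7 receptor that marks naive and memory T cells, was lower than every other detected member. It was at 34.9, 36.3, 36.4 and 35.7 TPM in replicates 1 to 4, a mean of 35.8 ± 0.701 TPM (SD, n = 4), from 955 to 2041 counts. Il7r (ENSMUSG00000003882.4) spans chr15:9506161-9529876 on the minus strand. Its CV of 1.96% was below the 2.73% that counting alone gives for such counts. Crlf2, the chain that pairs with it in the receptor for TSLP, was at a like level, 31.9 ± 2.17 TPM (SD, n = 4). Of the 3 other receptor chains in the pathway list, Crlf2 was the highest and Il13ra1 the lowest, at 0.154 ± 0.0847 TPM.

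Il9r, the chain that pairs with the shared chain in the IL-9 receptor, stood apart from its ligand. Il9r had 1, 1, 10 and 1 counts in replicates 1 to 4, or 0.0237, 0.0182, 0.116 and 0.0156 TPM. Replicate 3, the deepest library, was the only one above its floor of 3 counts, which is 0.0347 TPM there and 0.0469 to 0.0711 TPM in the other libraries. Il9r (ENSMUSG00000020279.10) spans chr11:32187541-32200279 on the minus strand. From counts pooled over the 4 libraries and divided by exon length, Il9 exceeded Il9r by a ratio of 29909 (exact 95% interval 17489 to 56177, counting error only). Without replicate 3 that ratio was 85167 (29139 to 413006), and in replicate 3 alone it was 13332 (7247 to 27808). With deposited lengths, Il9 and Il9r were thus the members of the highest and the lowest mean level.

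The order of the 10 levels was compared in 45 pairs of members, each within a library. In 43 of them the same gene was higher in 4 of 4 libraries, each with an exact two-sided sign-flip p of 0.125, or 0.131 after Benjamini-Hochberg adjustment over the 45 pairs, so no pair could pass a threshold of 0.05. The 2 pairs of mixed direction both held Il9. Its log2 ratio to Il2ra was 0.23, 0.10, -0.0059 and -0.14 in replicates 1 to 4 (0.05 ± 0.16, exact p = 0.75), and Il9 exceeded Il2 in 3 of 4 libraries (0.18 ± 0.18, exact p = 0.25). Il9, Il2ra and Il2 thus had no fixed order at the top, except that Il2ra exceeded Il2 in 4 of 4 libraries. That log2 ratio was 0.13 ± 0.11, and only 0.0099 in replicate 1, where the levels were nearly equal. With the longest transcript as length, Il2ra exceeded Il9, whose log2 ratio to it was then -0.33.

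Further down the order, neighbours kept their direction in 4 of 4 libraries. Il2 exceeded Il2rb by a log2 ratio of 0.54 ± 0.11, and Il2rb exceeded Il21 by 1.54 ± 0.10. Il21 exceeded Il2rg by 0.17 ± 0.06 with deposited lengths, but over unshared exon bases it was lower, at -0.35, so the order of these genes is not settled. Il2rg exceeded Il4ra by 0.38 ± 0.05, Il4ra exceeded Il21r by 0.84 ± 0.12, Il21r exceeded Il7r by 1.82 ± 0.10, and Il7r exceeded Il9r by 8.02 ± 0.42 (all SD, n = 4). The last of these depends on the pseudocount of 0.1 TPM, since Il9r was near 0.

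Variation between libraries was tested for every gene with 1 method, the deviance of its counts at edgeR's trended dispersion, which asks whether a gene varies more than genes of its level. Of 12434 genes tested, 65 (0.523%) were called at an adjusted p under 0.05. Of the 9 members tested, 0 were called, and 1 was under an unadjusted p of 0.05. It was Il9, with a Benjamini-Hochberg adjusted p of 0.581 by edgeR. The highest library of Il9 was 1.29 times its lowest. The filter on low counts left out Il9r, which had an adjusted p of 1.00 by edgeR with no filter. The median CV was 4.25% over the 9 members with a mean of 10 TPM or more, 6.02% over the 3 ligands and 3.56% over the 6 receptor genes among them, beside a median of 3.54% over 7905 protein-coding genes whose mean was 10 TPM or more.

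The call for Il9 rested on the spread assumed for genes of its level. With DESeq2's dispersion trend Il9 was called (adjusted p = 0.000244, with 69 genes, 0.555%, called in all). Without genes of chromosomes X and Y it was called by edgeR as well (adjusted p = 0.000428, with 91 of 12014 genes, 0.757%, called). In that fit 8 members were tested, and the expected CV at the level of Il9 (edgeR's biological coefficient of variation) was 0.0309, against 0.0522 with all genes. With genes of chromosomes X and Y kept, leaving out any 1 library gave edgeR adjusted p-values for Il9 from 0.116 to 1.00. The fit without those genes was not repeated with a library left out.

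**Figure D3:**
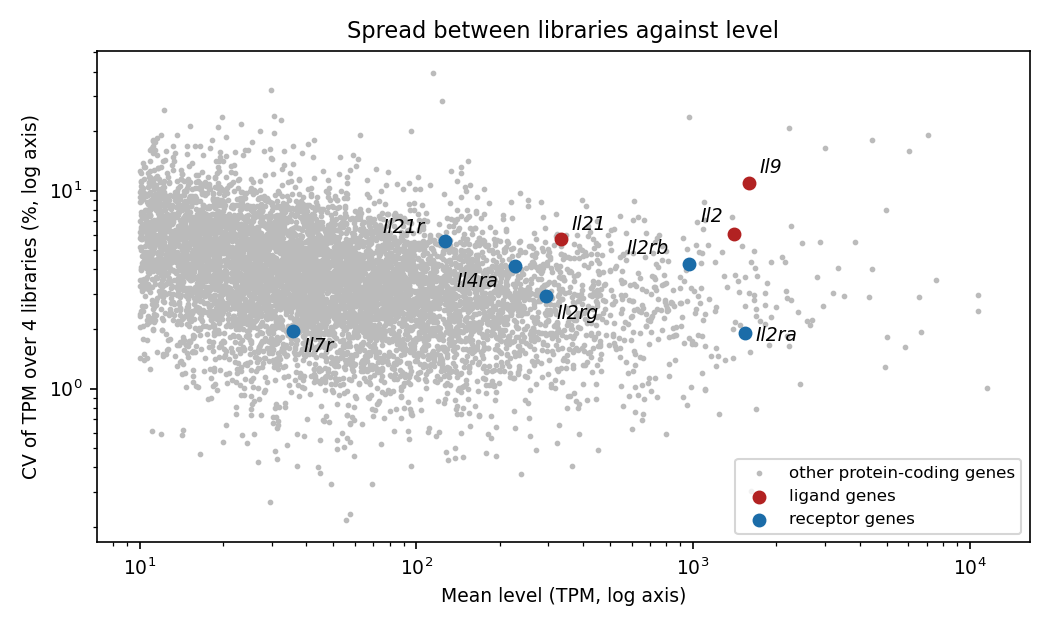
CV of TPM over the 4 libraries against mean TPM, both on log axes, for protein-coding genes whose mean was 10 TPM or more (grey) and for the 9 detected members, with ligand genes in red and receptor genes in blue. Il9 (10.9%) lies above most genes of its level, while Il2ra (1.91%) and Il7r (1.96%) lie low.

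The rest of the pathway was described from a list of 47 genes, of which 38 were at 1 TPM or more in every library. Of 40 tested for variation, 0 were called by the same edgeR deviance, with 3 under an unadjusted p of 0.05, and 0 by DESeq2's dispersion trend. Without genes of chromosomes X and Y, edgeR called 1 of 39, Socs2, where it called 0.757% of all genes. Both kinases were expressed, with Jak3, which binds the shared chain, at 151 ± 6.92 TPM and Jak1, which binds the partner chains, at 144 ± 1.7 TPM (SD, n = 4). Jak3 shares 7.55% of its exon bases with another gene on the same strand, and fragments there were left uncounted as well. All 4 STAT genes of the list were detected, from Stat3 at 211 ± 6.95 TPM, the main STAT of IL-21, down to Stat5a at 142 ± 3.13 TPM, which acts downstream of IL-2. All 6 adaptor and PI3K genes were detected, from Pik3cd, the catalytic subunit of leukocyte PI3K, at 158 ± 6.52 TPM to Gab2, a docking protein, at 1.82 ± 0.3 TPM.

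All 6 inhibitor genes were detected. Ptpn6, the phosphatase SHP-1, was the highest at 286 ± 11.6 TPM, and Socs2 the lowest at 17.2 ± 1.91 TPM (SD, n = 4). All 8 STAT5 and IL-2 target genes were detected, led by Lta, which encodes lymphotoxin alpha, at 2864 ± 158 TPM, above each of the 10 members. Bcl2, a survival gene, was the lowest of them at 25.8 ± 1.5 TPM. Of 13 transcription factors known to act on member genes, 11 were detected. Irf4, a factor of activated and Th17 cells, was the highest at 813 ± 20.2 TPM, and Spi1, the factor PU.1 that acts on Il9 in Th9 cells, had 0 counts in every library.

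**Figure D4:**
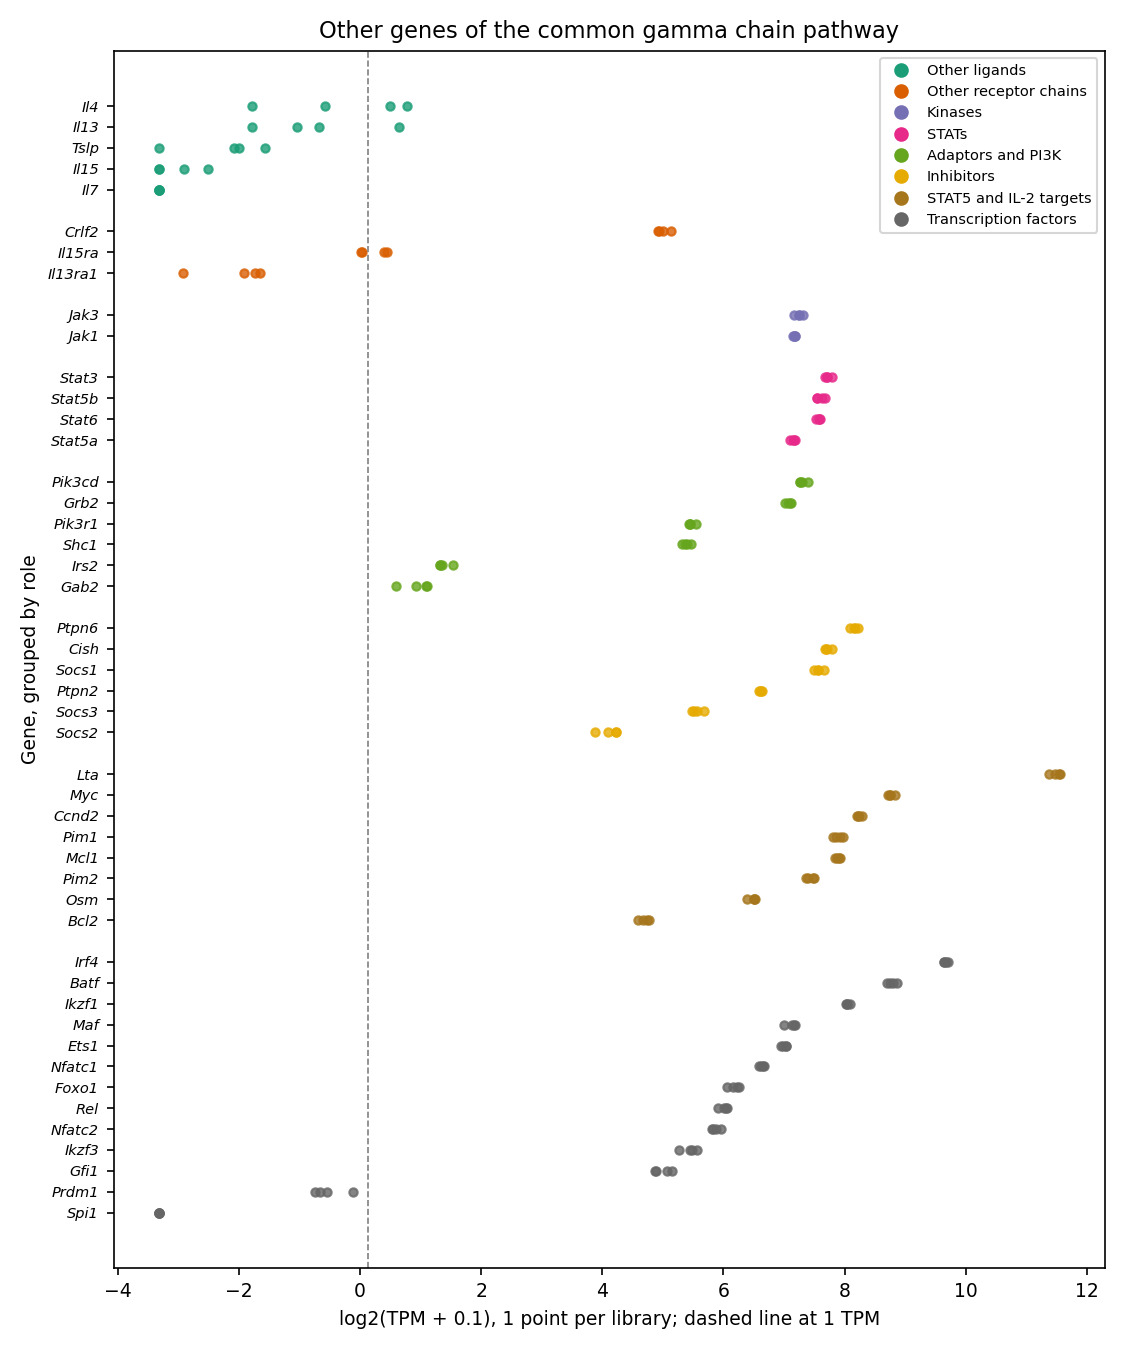
Level of each of the 47 other pathway genes as log2(TPM + 0.1), grouped by role and ordered by mean, with 1 point for each of the 4 libraries and a dashed line at 1 TPM. The other ligands, Il13ra1, Prdm1 and Spi1 lie left of the line or cross it, as does Il15ra, and the kinases, STATs, inhibitors and targets all lie to the right of it.

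The genes next to Il2, Il21 and Il9 were far below them in level, while those next to Il4ra and Il21r were closer. On chromosome 3, Adad1, a testis gene on the plus strand that overlaps Il2 by 1408 bases at its far end, had 0, 2, 4 and 0 counts in replicates 1 to 4, while Il2 had at least 14658 counts in every library. The counting read strand, so that Il2 fragments did not enter Adad1. Cetn4, the protein-coding gene on the other side of Il21, was at 9.26 ± 0.211 TPM (SD, n = 4), against 333 TPM for Il21. Beside Il9, Slc25a48 had 1, 0, 2 and 0 counts, and Fbxl21 was at 0.632 ± 0.0411 TPM. On chromosome 7 the flanking genes were expressed at levels nearer to those of Il4ra and Il21r. Nsmce1, on the outer side of Il4ra, was at 117 ± 6.38 TPM, and Gtf3c1, on the outer side of Il21r, was at 82.7 ± 1.97 TPM.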

How the data were processed

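The authors deposited raw fragment counts per gene with the exon length in bases; per the file headers they were made with featureCounts 1.4.6-p4 on paired, reverse-stranded reads with both ends mapped and GENCODE M13 models, and per the labels on mm10. The counting command had no option for multi-mapping fragments or for fragments on more than 1 gene, which were left uncounted. The aligner and its settings are not given in the sources used here. The name of the counting output carries a time that the labels do not repeat, and what it refers to is not known here.

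TPM was computed here from counts and deposited lengths with Python 3.11.15. Pairs were compared as log2((TPM + 0.1)/(TPM + 0.1)). Symbols and transcripts came from GENCODE M21, and shared exon bases from the exon coordinates deposited with the counts. Where under 200 unshared bases were left, or versions differed, the deposited length was kept. Variation was tested in R 4.3.3 with edgeR 4.0.16 (TMM, default filter, negative binomial deviance at the trended dispersion, chi-square with 3 degrees of freedom, Benjamini-Hochberg over all genes), with DESeq2 1.42.0 as an alternative, and tested on simulated counts. A single group has no contrast for a quasi-likelihood test. Totals were 28555677, 36998648, 58104663 and 42896684 counts in replicates 1 to 4; intervals and floors cover counting error only. Named were all members, the highest and lowest gene of each pathway role and any called variable. Named too were the 3 genes nearest to Il2rg in level, and genes next to Il2, Il21, Il4ra, Il21r and Il9. Il13, Il15ra, the overlapping Gm20489, Xist, Eif2s3y and markers are named beyond these rules, after their values were seen. Of the pathway list, 1 gene is not reported here and was left out of its counts. Members and lists were chosen with earlier results of these data known. Alternatives were other lengths, scalings, thresholds, pseudocounts, dispersions and each library left out.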

Additional observations from a re-analysis of the deposited data

Results flagged for a closer look

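Of 47 groups of 4 values checked, 4 had 1 library far from the other libraries by Dixon's test at the 95% level, and chance flags about 1 in 20 groups. For Il2rg, replicate 3 was at 282 TPM, while the others lay between 298 and 301 TPM. For Il9r, replicate 3 was at 0.116 TPM (10 counts), while the others lay between 0.0156 and 0.0237 TPM (1 count each). The log2 ratio of Il2rg to Il9r was 10.35 in replicate 3, while it was 11.24 to 11.34 in the others, and it holds the same 2 values of that library. The log2 ratio of the 5 partner chains to Il2rg was 2.15 in replicate 4, while it was 2.21 to 2.22 in the others.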

How the results depend on the processing

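The median of the members' mean levels (314 TPM) was 392 TPM with the longest transcript, 375 over unshared exon bases and 517 over unshared bases of the longest transcript; the alternatives with unshared bases were chosen after seeing the data. Calls of variable members went to 1 (Il9) with DESeq2's dispersion trend and when genes of chromosomes X and Y were left out, and those of pathway genes to 1 (Socs2) in the second of these. On the CPM scale, with no length, log2 ratios turned to -0.92 for Il9 to Il2, -0.12 for Il2 to Il21, -0.95 for Il2rg to Il4ra, -3.37 for Il9 to Il2ra, -0.74 for Il2 to Il2rb, -1.66 for Il9 to Il2rb, -1.04 for Il9 to Il21 and -0.68 for Il9 to Il4ra, all 8 pairs that turned there. Il9 to Il2ra also turned with the longest transcript and with its unshared bases (-0.33 each) and without replicate 1 (-0.016, with 0.11 without replicate 4). Il21 to Il2rg turned to -0.35 over unshared exon bases and -0.39 over those of the longest transcript, and the 4 partner chains without Il2rb, an addition after seeing the data, to -0.12 and -0.69. Il9r moved to 0.0192 TPM without replicate 3, against 0.0433 TPM with all. With 1 library left out, detected members stayed at 9, the median level was 309.9 to 319.9 TPM, pairs of 1 direction numbered 43 to 44, the 5 partner chains exceeded Il2rg by 2.19 to 2.22, and called members and pathway genes stayed at 0. Of all alternative values, 319 kept their direction (ratios) or stayed near the value given (levels and counts), 24 moved and 15 turned; ratios that kept their direction could still change in size, as the 5 partner chains to Il2rg did. Il9r is limited by depth. No paired analysis was possible because the libraries form 1 group.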
